A study of Drosophila melanogaster with 12 samples.

Results

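The nuclear-encoded subunits of respiratory complex I were described in whole female Drosophila melanogaster. Members were all genes of the deposited expression table whose symbol starts with ND-, which gave 40 genes of 17714. Of these, 34 carry the name of a subunit. The other 6 are paralogs, whose symbol is that of another member followed by L, and they are described apart from the subunits. Expression was measured as poly(A) RNA of whole bodies in 12 libraries, each from about 15 female flies, with 3 libraries in each of 4 groups. The mutants carry the genotype ptth120BC2, a mutation of Ptth, which encodes the prothoracicotropic hormone that times metamorphosis, and the wild type is wOB. The groups were old Ptth mutants (5 weeks), old wild type (5 weeks), young Ptth mutants (1 week) and young wild type (1 week). The 3 libraries per group are described as biological replicates, but whether they came from separate cultures is not said, so the p-values below measure the spread between these libraries.

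Complex I (NADH:ubiquinone oxidoreductase) is the entry point of electrons from NADH into the respiratory chain of the mitochondrial inner membrane, and it couples their passage to ubiquinone with proton pumping. A peripheral arm holds the N module, which binds and oxidises NADH, and the Q module, which passes the electrons to ubiquinone. A membrane arm, with a proximal and a distal part, pumps protons. Nuclear genes supply the catalytic core of the peripheral arm and the accessory subunits, whereas the mitochondrial genome supplies the core of the membrane arm. Insect flight muscle is especially rich in mitochondria.

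All 40 members were found in the Release 6 (BDGP6) annotation. The 34 subunit genes lie on chromosome 2L (9 genes), 2R (6), 3L (7), 3R (2), 4 (1) and X (9), and the 6 paralogs on 2R, 3L and 3R with 2 genes each. By their mammalian orthologues, 8 subunits belong to the N module, 7 to the Q module, 7 to the proximal and 10 to the distal membrane arm. Another 2 stand outside these: ND-ACP, the mitochondrial acyl carrier protein, and ND-MLRQ, whose mammalian orthologue is now assigned to complex IV. ND-MNLL was listed at 0 in all 12 libraries, and all 720 of its exonic bases are shared with the same-strand gene CG45089, also listed at 0 in all 12. The other 33 subunits passed the filter on low values (10 or more normalised counts in 3 or more libraries) and were tested.

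Library depth ran between 16448805 and 28206866 reads assigned to genes. Ptth itself had 43.6 to 58.6 normalised counts in old mutants, 75.3 to 76.8 in old wild type, 18.5 to 28.3 in young mutants and 25.5 to 39.9 in young wild type. The allele named in the study's methods is a short deletion, so a count over the whole gene does not check the genotype. In 3 young libraries (mutant replicate 1, wild type replicates 1 and 2) RNA of males was present. A list of 19 genes of the male reproductive tract summed to 6374 to 20216 normalised counts in these 3 libraries and to 8.97 to 48.4 in the other 9. A list of 21 testis and sperm genes summed to 2273 to 9687 in these 3 libraries and to 58.9 to 102 in the other 9. Results that rest on young libraries are therefore also given without these 3, which leaves 2 young mutant libraries and 1 young wild type library.

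The transcripts of complex I subunits were lower in old than in young flies of both genotypes. The 34 subunits together made up 0.326% ± 0.0178 of the normalised counts in old mutants and 0.323% ± 0.0170 in old wild type, against 0.426% ± 0.0244 in young mutants and 0.421% ± 0.0224 in young wild type (SD, n = 3 each). By library, this share was 0.337%, 0.335% and 0.305% in old mutants. It was 0.335%, 0.303% and 0.329% in old wild type. Young mutants had shares of 0.443%, 0.398% and 0.436%, and young wild type had 0.430%, 0.439% and 0.396%. The shares of the 6 old and the 6 young libraries did not overlap. Within each age, the libraries of both genotypes did overlap. In RNA of whole bodies, fewer cells rich in mitochondria and less RNA of these genes per cell cannot be told apart.

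**Figure D1:**
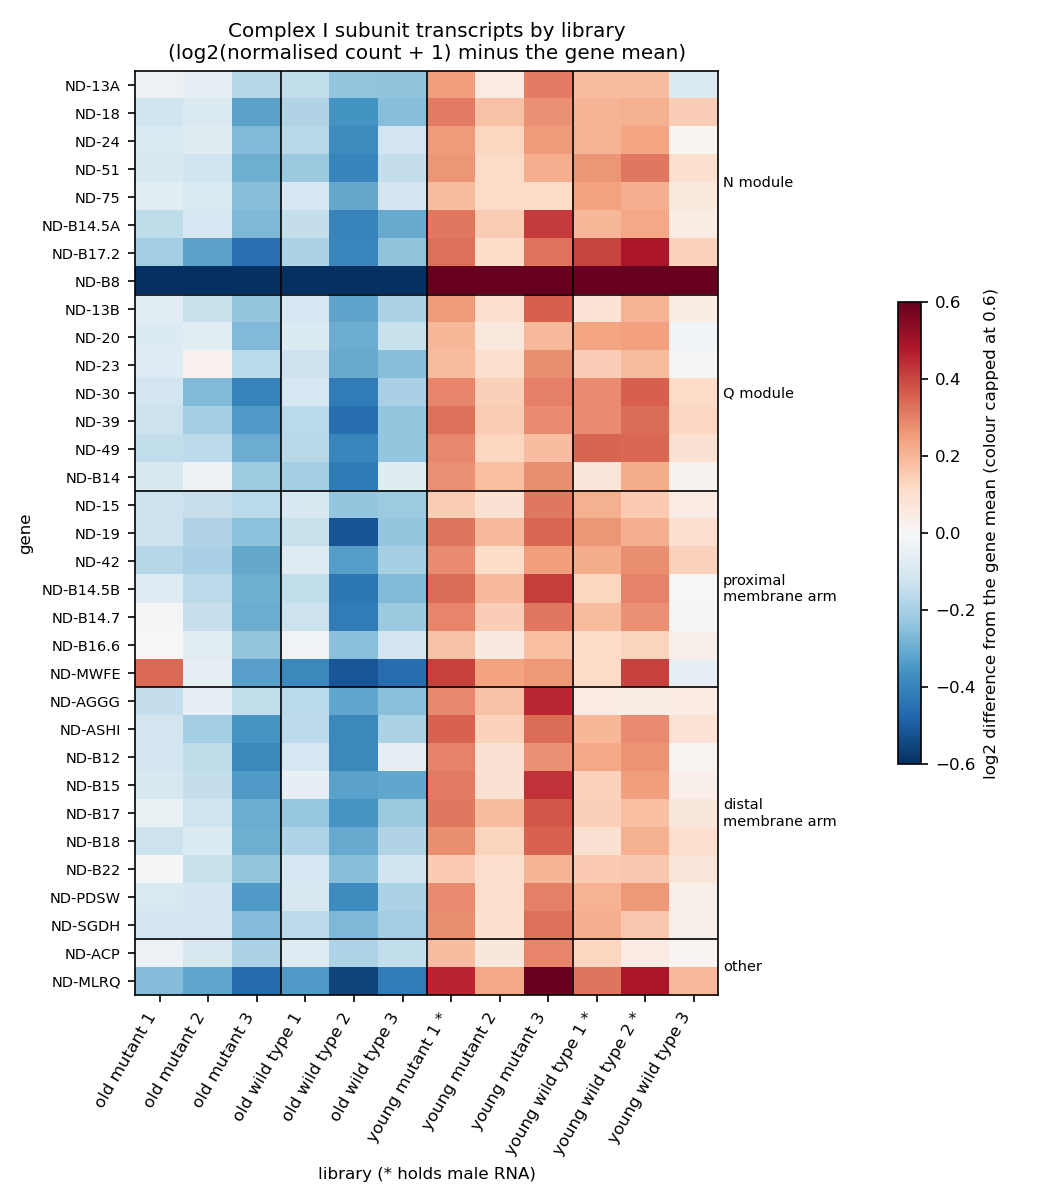
Level of each of 33 complex I subunit transcripts in each of 12 libraries, as log2(normalised count + 1) minus the mean of the gene over all libraries (colour, capped at 0.6 on either side). Genes are rows, grouped by module, and libraries are columns. Asterisks mark the 3 young libraries with male RNA. The old libraries are blue and the young libraries red for nearly all genes, and ND-B8 exceeds the colour scale in all 12.

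The 33 subunits moved together across the libraries. For each one, the correlation of its log2 level with the median of the other subunits over the 12 libraries had a Pearson r between 0.844 (ND-MWFE) and 0.994 (ND-PDSW), with a median of 0.974. The 12 libraries share the split into old and young, so this r largely describes that split. ND-AGGG (0.894) and ND-B14 (0.945) followed ND-MWFE at the low end. Single libraries also shifted nearly all subunits at once. Old wild type replicate 2 was the lowest of all 12 libraries for 28 of 33 subunits. Young wild type replicate 3, the only young wild type library without male RNA, was the lowest of the 6 young libraries for 29 of 33.

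With age, all 33 subunits had a lower mean log2 level in Ptth mutants and all 33 in wild type. Changes are differences of log2(normalised count + 1), old minus young, from limma with p-values adjusted over all 11403 genes tested. The median change was -0.41 in mutants and -0.39 in wild type, beside -0.02 and 0.03 over all genes tested. Leaving out ND-B8, which is described on its own, the changes in mutants lay between -0.79 (ND-MLRQ) and -0.24 (ND-B16.6), and those in wild type between -0.77 (ND-MLRQ) and -0.20 (ND-ACP). A typical subunit of old flies thus stood at 75.5% of its young level in mutants and at 76.8% in wild type. At a fold of over 2 and an adjusted p under 0.05, 1 of 33 subunits (ND-B8) was called lower in mutants, where 1.02% of all genes were. The same 1 of 33 was called lower in wild type, where 2.17% of all genes were. Without a fold limit, a rule chosen after the data were seen, 27 of 33 subunits fell in mutants against 3.35% of all genes tested. In wild type, 27 of 33 fell against 5.73% of all genes. The genotypes shared 24 of these. Both counts lie above the background share, and the changes other than that of ND-B8 were under 2-fold. These counts depended on single libraries: in mutants 16, 12, 16 and 12 subunits were left without young replicate 1, young replicate 3, old replicate 2 and old replicate 3, and in wild type 13, 16 and 13 without young replicate 1, young replicate 2 and old replicate 2. The counts over all genes tested fell too. In the same fits 267, 287, 278 and 255 genes were lower in mutants, against 382 with all libraries. In wild type 392, 433 and 419 were, against 653.

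Values of single libraries separated the ages nearly completely. In mutants, all 3 old libraries lay below all 3 young libraries for 32 of 33 subunits, as they did for 11.5% of all genes tested. In wild type this held for 33 of 33 subunits, against 11.6% of all genes. All 6 old libraries lay below all 6 young libraries for 30 of 33, against 4.16% of all genes, and the exceptions were ND-13A, ND-23 and ND-MWFE. When only the 3 young libraries without male RNA were used, the 6 old libraries lay below them for 30 of 33 subunits again, against 6.24% of all genes.

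Without the 3 libraries with male RNA, all 33 subunits still had a lower mean in old flies of both genotypes. The median change was then -0.38 in mutants and -0.28 in wild type. In mutants, 6 subunits kept an adjusted p under 0.05: ND-B8, ND-MLRQ, ND-B17.2, ND-42, ND-B17 and ND-15. In the same fit 2.31% of all genes passed as lower. In wild type a lone young library remained, which is assumed to vary like the other groups. There limma gave 0 subunits at that threshold, against 1.51% of all genes, and 15 of 33 had an unadjusted p under 0.05, against 16.9% of all genes. In the model of all 12 libraries, 32 of 33 in mutants and 33 of 33 in wild type had an unadjusted p under 0.05, against 16.2% of all genes in mutants and 25.7% in wild type.

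The summed level of 18 muscle genes moved in the same direction. It was 90853 to 101012 normalised counts in old mutants and 80871 to 103846 in old wild type, against 156020 to 172510 in young mutants and 167699 to 229703 in young wild type. Of these 18 genes, 6 were called lower with age at a fold over 2 in mutants, against 1.02% of all genes tested. In wild type 12 were, against 2.17% of all genes, and none of the 18 was at 0 in all libraries of a group. Their median log2 change was -0.92 in mutants and -1.37 in wild type. Without the 3 libraries with male RNA it was -0.86 and -1.12. The young wild type library without male RNA had the lowest young wild type sum, 167699. The part of muscle in the lower level of complex I transcripts was not tested. Summed markers of photoreceptors and neurons (13 genes) overlapped between the ages, with 56595 to 65867 in old mutants and 62421 to 75086 in old wild type, against 54402 to 62469 in young mutants and 56969 to 75969 in young wild type. The young libraries without male RNA had 54402 and 56508 in mutants and 56969 in wild type, below the old sums of their genotype. In mutants, 2 other lists were higher in old flies with no overlap. Fat body and yolk genes (8) summed to 544383 to 683170 in old mutants, against 438627 to 466547 in young mutants. Gut genes (7) summed to 78626 to 94634 in old mutants, against 58432 to 72961 in young mutants. In wild type both overlapped between the ages, with 391199 to 511276 in old and 395165 to 635531 in young flies for fat body and yolk, and 61265 to 74221 in old and 54237 to 92670 in young flies for gut. The lone young wild type library without male RNA had 395165 for fat body and yolk, within the old range. For gut it had 54237, below the old range. Without the 3 libraries with male RNA, the median log2 change of fat body and yolk genes was 0.40 in mutants and 0.16 in wild type. For gut genes it was 0.76 and 0.23. The contrast between the genotypes in overlap thus depended on these libraries for gut genes. For fat body and yolk genes the contrast stayed without them, though with a lone young wild type library. Germline and oocyte genes (12) overlapped between the ages in both genotypes when all 12 libraries were used. Without the 3 libraries with male RNA, their median log2 change was -0.16 in mutants and -0.16 in wild type. The part of these tissues in the lower level of complex I transcripts was not tested either.

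**Figure D2:**
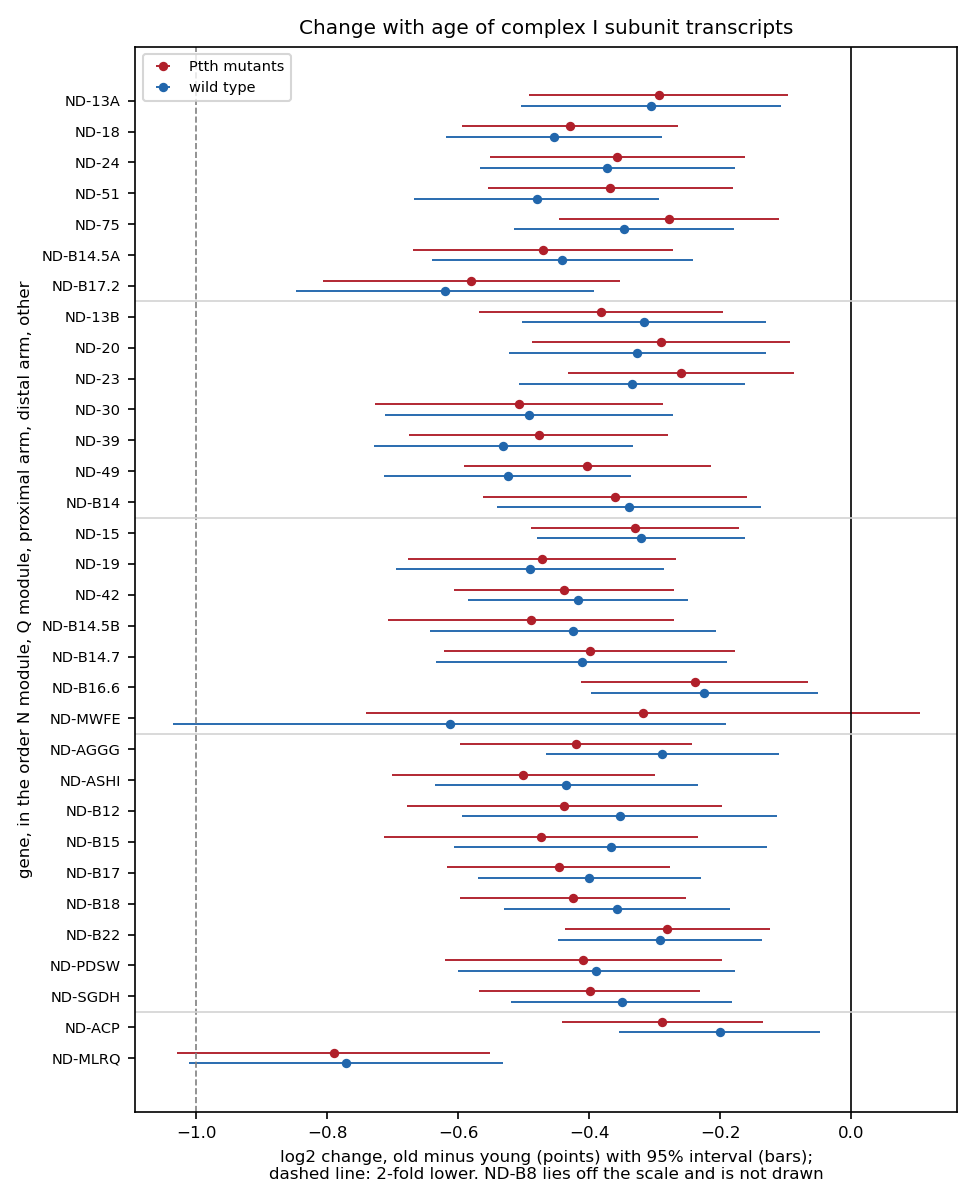
Change with age of 32 complex I subunit transcripts (rows, grouped by module), as the log2 difference of old minus young flies (horizontal axis) with its 95% interval. Red points are Ptth mutants and blue points wild type. All points lie left of 0, and the lowest pair is ND-MLRQ at -0.79 and -0.77. ND-B8, at -5.99 and -5.97, is off the scale and not drawn.

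The catalytic core of the peripheral arm consists of 7 nuclear subunits, and each had a lower mean in old flies. ND-75 carries iron-sulphur clusters of the N module. It had 7460, 7325 and 6545 normalised counts in old mutants, against 8899, 8451 and 8488 in young mutants. In wild type it had 7284, 6322 and 7227 in old flies, against 9233, 9080 and 8157 in young flies. In both genotypes every old library was below every young one. Its log2 change was -0.28 ± 0.08 in mutants (SE; limma adjusted p = 0.0575), which did not pass, and -0.35 ± 0.08 in wild type (adjusted p = 0.0155), which did.

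ND-51 binds NADH and the flavin cofactor that takes its electrons. It averaged 6514 ± 475 in old mutants and 8398 ± 439 in young mutants (SD, n = 3 each). In wild type it averaged 6147 ± 546 in old flies and 8570 ± 667 in young flies. ND-51 fell in both, by 0.37 on the log2 scale in mutants (limma adjusted p = 0.0252) and by 0.48 in wild type (adjusted p = 0.00460). ND-24, its partner in the NADH-oxidising unit, also fell in both, by 0.36 (adjusted p = 0.0360) and by 0.37 (adjusted p = 0.0232).

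In the Q module, ND-49 helps to form the ubiquinone site. It averaged 4418 ± 252 in old mutants and 5839 ± 326 in young mutants, and 4239 ± 334 in old wild type and 6106 ± 602 in young wild type (SD, n = 3 each). ND-49 fell by 0.40 on the log2 scale in mutants (limma adjusted p = 0.0161) and by 0.52 in wild type (adjusted p = 0.00272). ND-30, which packs against ND-49, fell by 0.51 in mutants (adjusted p = 0.0108) and by 0.49 in wild type (adjusted p = 0.0102). ND-20 carries the last iron-sulphur cluster before ubiquinone. Its change was -0.29 ± 0.09 in mutants (SE; adjusted p = 0.0946) and -0.33 ± 0.09 in wild type (adjusted p = 0.0448). ND-23, which carries a pair of iron-sulphur clusters, changed by -0.26 ± 0.08 in mutants (adjusted p = 0.0879) and by -0.33 ± 0.08 in wild type (adjusted p = 0.0217). Thus, with all 12 libraries, 4 of 7 core subunits passed in mutants and 7 of 7 in wild type. This difference between the genotypes was not itself significant (the interaction is given below). The median change of the 7 was -0.36 in mutants and -0.37 in wild type. Without the 3 libraries with male RNA it was -0.33 and -0.24. No core subunit is among those named above as passing in mutants in that fit.

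The modules differed little in their typical change. In mutants and in wild type, the median log2 change with age was -0.40 and -0.45 over 8 N module subunits, -0.38 and -0.34 over 7 Q module subunits and -0.40 and -0.42 over 7 subunits of the proximal membrane arm. Over the distal membrane arm it was -0.43 and -0.36, counted with NP15.6, a distal subunit whose symbol does not start with ND-. Of the 10 distal genes tested, 10 fell in mutants and 8 in wild type, with no fold limit, against 3.35% and 5.73% of all genes. NP15.6 alone changed by -0.54 in mutants (limma adjusted p = 0.00168) and -0.44 in wild type (adjusted p = 0.00511). Without the 3 libraries with male RNA, the medians in mutants were -0.37, -0.36, -0.38 and -0.42 in the order above. In wild type they were -0.34, -0.25, -0.28 and -0.27. Fewer of the distal genes then passed in mutants. No difference between modules was tested.

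ND-MLRQ was the subunit with the largest change after ND-B8 and the most abundant one per kilobase of exon. It had 3304, 3194 and 2878 normalised counts in old mutants, against 5436, 4654 and 6207 in young mutants. Old wild type flies had 3133, 2695 and 2962, against 4947, 5555 and 4529 in young wild type. All 6 old libraries were below all 6 young ones. ND-MLRQ fell by 0.79 ± 0.11 on the log2 scale in mutants (SE; limma adjusted p = 0.00110) and by 0.77 ± 0.11 in wild type (adjusted p = 0.00103). Without the libraries with male RNA, its change was -0.78 in mutants (adjusted p = 0.0238) and -0.63 in wild type (adjusted p = 0.109).

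ND-B17.2, a late-joining accessory subunit of the peripheral arm, had 1509, 1396 and 1275 normalised counts in old mutants, against 2191, 1879 and 2182 in young mutants. In wild type it had 1528, 1325 and 1471 in old flies, against 2306, 2446 and 1920 in young flies. It fell by 0.58 ± 0.10 on the log2 scale in mutants (SE; limma adjusted p = 0.00575) and by 0.62 ± 0.10 in wild type (adjusted p = 0.00300). Without the libraries with male RNA, its change was -0.54 in mutants and -0.42 in wild type, where a lone young library remained.

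The 3 smallest changes were those of ND-B16.6, ND-23 and ND-75 in mutants, and of ND-ACP, ND-B16.6 and ND-AGGG in wild type. ND-B16.6, the orthologue of mammalian GRIM-19, averaged 2549 ± 211 in old mutants and 3003 ± 145 in young mutants, and 2501 ± 202 in old wild type and 2915 ± 116 in young wild type (SD, n = 3 each). Its change was -0.24 ± 0.08 in mutants (SE; limma adjusted p = 0.120) and -0.22 ± 0.08 in wild type (adjusted p = 0.112), so it passed in neither. ND-ACP changed by -0.29 in mutants (adjusted p = 0.0317) and by -0.20 in wild type (adjusted p = 0.109). ND-AGGG, a small distal-arm subunit, changed in mutants by -0.42 (adjusted p = 0.00891), close to the median subunit, and by -0.29 in wild type (adjusted p = 0.0498).

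ND-13A, ND-B16.6 and ND-MWFE passed in neither genotype. ND-MWFE, a small subunit of the proximal membrane arm, was low in all libraries. It had 69.8, 52.8 and 43.6 normalised counts in old mutants and 41.8, 38.2 and 39.7 in old wild type. Young mutants had 73.3, 65.1 and 66.1, and young wild type had 59.8, 73.4 and 53.1. The gene shares 167 exonic bases with TppII on the opposite strand and 128 with Nrk on its own strand, of 844 in all, so its counts are uncertain. Its change was -0.32 ± 0.19 in mutants (SE; limma adjusted p = 0.531) and -0.61 ± 0.19 in wild type (adjusted p = 0.0764). Under quantile normalisation 1 of 33 subunits had a higher mean in old than in young wild type.

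ND-B8 stood apart from all other subunits. Its mammalian orthologue, NDUFA2, is an accessory subunit of the N module. The gene lies on the plus strand of chromosome 2L, between positions 4454626 and 4455207. It had 2.79, 11.96 and 0 normalised counts in old mutants, against 251, 197 and 252 in young mutants. In wild type it had 2.39, 0.954 and 1.32 in old flies, against 170, 179 and 123 in young flies. The transcript was thus close to absent in all 6 old libraries and present in all 6 young ones, with and without male RNA. These values rest on 15 reads in old mutants and 729 in young mutants, and on 4 reads in old wild type and 489 in young wild type. Corrected for depth, young mutants had 51.3 times the old level, with a 95% exact interval of 30.9 to 92.1. Young wild type flies had 104 times the old level, with an interval of 40.5 to 385. Both intervals cover counting error only.

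On the log2 scale with a pseudocount of 1, which understates the change of low genes, ND-B8 fell by 5.99 ± 0.68 in mutants (SE; limma adjusted p = 3.06e-04) and by 5.97 ± 0.68 in wild type (adjusted p = 2.40e-04). In mutants this was rank 1 of all 11403 genes ordered from the largest fall, and in wild type it was rank 17. Genes of males take part in this ranking through the libraries with male RNA. Their median change in wild type was -4.74 over 18 male tract genes and -4.43 over 16 testis and sperm genes. No rank was computed without these libraries. Among the 97 genes called lower with age in both genotypes, none had a larger mean fall over the genotypes. Without the 3 libraries with male RNA, the change was -5.93 in mutants (adjusted p = 0.0216) and -5.64 in wild type (adjusted p = 0.0652), which did not pass.

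ND-B8 was among the 3 lowest of the tested subunits in young flies too. Per kilobase of exon, it averaged 507 ± 68.5 normalised counts in young mutants and 342 ± 65.8 in young wild type (SD, n = 3 each). ND-AGGG was higher, at 787 in young mutants and 655 in young wild type, and ND-MWFE lower, at 80.7 and 73.5. The median subunit, with ND-B8 and ND-MWFE left out, had 2808 in young mutants and 2724 in young wild type. The ND-B8 gene has 460 exonic bases, of which 71 overlap Gs1l on the opposite strand. Gs1l averaged 1534 ± 32.8 normalised counts in old mutants and 1532 ± 96.0 in old wild type, against 1608 ± 88.2 in young mutants and 1607 ± 31.5 in young wild type (SD, n = 3 each). Its libraries overlapped between the ages in both genotypes.

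**Figure D3:**
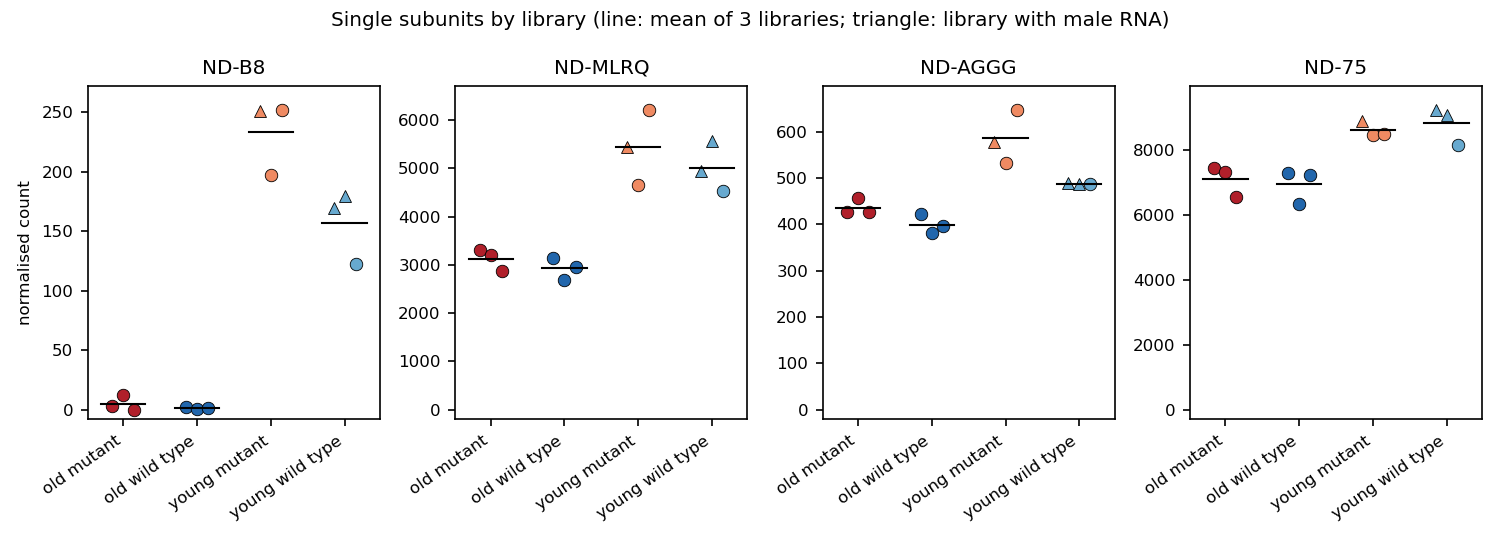
Normalised counts (vertical axis, linear from 0) of ND-B8, ND-MLRQ, ND-AGGG and ND-75 in each of 12 libraries, by group. Each point is a library, triangles are the 3 libraries with male RNA, and lines are means of 3 libraries. ND-B8 lies between 0 and 11.96 in old flies and between 123 and 252 in young flies, whereas ND-75 differs much less between the ages.

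Per kilobase of exon, the top 2 subunits were the same in all 4 groups. ND-MLRQ was highest, at 5808 ± 411 normalised counts per kilobase in old mutants and 5446 ± 411 in old wild type, against 10097 ± 1443 in young mutants and 9313 ± 959 in young wild type (SD, n = 3 each). ND-51 was next, at 4097 ± 299 in old mutants and 3866 ± 343 in old wild type, against 5282 ± 276 in young mutants and 5390 ± 420 in young wild type. The gap between these genes exceeded their spread in all 4 groups. At the bottom, ND-B8 was below ND-MWFE in old flies and above it in young flies. Next above this pair in all 4 groups was ND-AGGG, at 586 ± 23.0 in old mutants and 537 ± 27.8 in old wild type, against 787 ± 76.8 in young mutants and 655 ± 1.91 in young wild type.

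No complex I subunit passed the test between Ptth mutants and wild type at either age in limma with all 12 libraries. In young flies 0 of 33 subunits passed both limits, a fold over 1.5 and an adjusted p under 0.05, whereas 4.81% of all genes did. Without a fold limit the count was also 0 in limma, against 8.83% of all genes, and 1 subunit had an unadjusted p under 0.05. DESeq2 on recovered reads gave 1 subunit without a fold limit, against 21.8% of all genes, and edgeR gave 0. Leaving out young wild type replicate 3 gave 1 in limma, against 47.7% of all genes. The median log2 difference, mutant minus wild type, was 0.09 (-0.02 over all genes tested), and 27 of 33 subunits had a higher mean in mutants. Single libraries moved this median, to 0.02 without wild type replicate 3 (21 of 33 higher), 0.14 without mutant replicate 2 (30 of 33) and 0.05 without mutant replicate 3 (23 of 33). With all 12 libraries, the 95% interval of the difference lay within 1.5-fold on either side in the 32 subunits other than ND-B8. That bound did not hold for every subunit once the 3 libraries with male RNA were left out. Without the 3 libraries with male RNA, all 33 subunits had a higher mean in young mutants, with a median of 0.17 and 0 below an adjusted p of 0.05, as none had an unadjusted p under 0.05.

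In old flies 0 of 33 subunits were called, whereas 4.17% of all genes were. Without a fold limit 0 passed in limma, edgeR and DESeq2, against 5.71% of all genes in limma, and 1 subunit had an unadjusted p under 0.05 in limma. The median log2 difference was 0.06 (0.00 over all genes tested), and 29 of 33 subunits had a higher mean in mutants. Single libraries decided its size. It was 0.11 without wild type replicate 1 (32 of 33 higher) and 0.0049 without wild type replicate 2 (18 of 33). It was 0.034, 0.040 and 0.12 without mutant replicate 1, 2 and 3 in turn (22, 27 and 33 of 33 higher). Scaled to the library total it was 0.02, with 20 of 33 higher. The 95% interval lay within 1.5-fold for 31 of the 32 subunits other than ND-B8. The exception was ND-MWFE, at 0.44 ± 0.19 (SE; limma adjusted p = 0.278), with an upper bound of 0.86.

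ND-AGGG had the smallest adjusted p of the young comparison. It had 577, 534 and 647 normalised counts in young mutants, against 489, 487 and 488 in young wild type. In old flies it had 427, 456 and 426 in mutants, against 422, 381 and 397 in wild type. The libraries did not overlap at either age. The log2 difference was 0.26 ± 0.08 in young flies (SE; limma adjusted p = 0.0653) and 0.13 ± 0.08 in old flies (adjusted p = 0.518), so it passed at neither age. In young flies 3 of 33 subunits lay higher in mutants with no overlap, against 11.6% of all genes, and in old flies 2 of 33, against 11.5%. ND-AGGG alone did so at both ages, which 4.18% of all genes did, so these counts lie near the background.

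The largest positive difference beside ND-AGGG and ND-B8 in young flies was that of ND-B14.5B, a proximal-arm subunit, at 0.17 ± 0.10 (SE; limma adjusted p = 0.239). In old flies it was that of ND-23, at 0.16 ± 0.08 (adjusted p = 0.364), after ND-B8 and ND-MWFE. The most negative differences were -0.09 for ND-B17.2, -0.06 for ND-49 and -0.03 for ND-75 in young flies. In old flies they were -0.05 for ND-B17.2, -0.04 for ND-B12 and -0.02 for ND-30. None of these negative differences passed, and each was smaller than its standard error. ND-B8 was 0.58 ± 0.68 higher in young mutants (adjusted p = 0.541) and 0.56 ± 0.68 in old mutants (adjusted p = 0.815). Without old mutant replicate 2, which held 12 of the 15 reads, the old difference became -0.35.

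**Figure D4:**
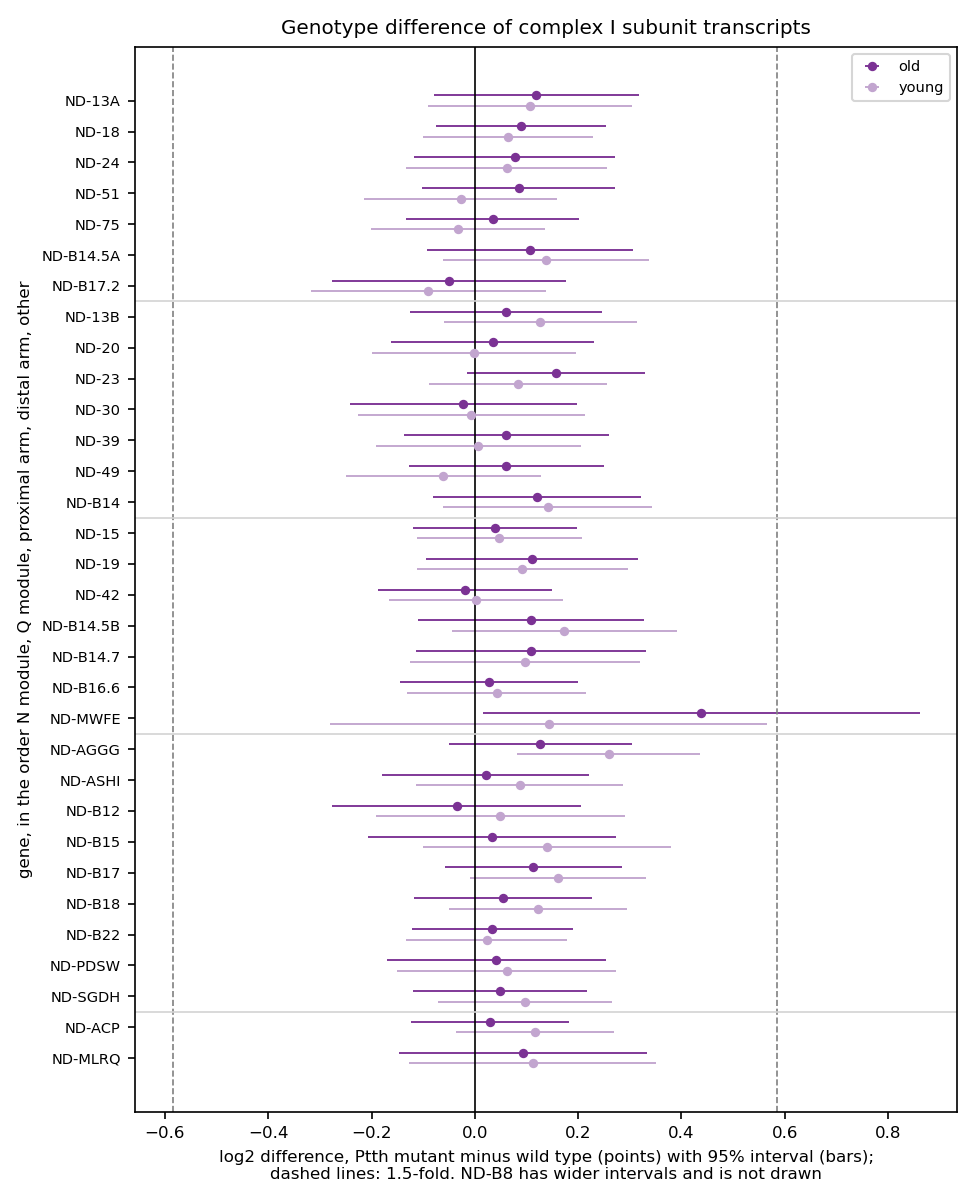
Genotype difference of 32 complex I subunit transcripts (rows, grouped by module), as the log2 difference of Ptth mutants minus wild type (horizontal axis) with its 95% interval, in old flies (dark) and young flies (light). Dashed lines mark 1.5-fold on either side. The points lie close to 0, and only the interval of ND-MWFE in old flies, which reaches 0.86, crosses a dashed line. ND-B8 is not drawn.

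No subunit passed for a difference between the genotypes in its change with age. In the genotype by age interaction, (old minus young in mutants) minus (old minus young in wild type), limma gave 0 of 33 subunits at an adjusted p under 0.05, against 0.158% of all genes, and 0 had an unadjusted p under 0.05. edgeR and DESeq2 also gave 0. The median was -0.02, with 19 of 33 below 0. Without the 3 libraries with male RNA it was -0.12, with 30 of 33 below 0, and 0 had an unadjusted p under 0.05 in limma. Over single libraries left out it ran from -0.08 (without old wild type replicate 2) to 0.05 (without old mutant replicate 3), so its sign depended on single libraries. The lowest values were -0.13 for ND-AGGG, -0.11 for ND-B15 and -0.09 for ND-ACP. The highest were 0.30 ± 0.27 for ND-MWFE, 0.12 ± 0.12 for ND-49 and 0.11 ± 0.12 for ND-51 (SE), and the smallest adjusted p was 0.779. Over the subunits other than ND-B8, the 95% intervals together ran from -0.45 (ND-B15) to 0.89 (ND-MWFE), so that differences of this size between the genotypes are not excluded for single genes.

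Other genes of the respiratory chain were read from lists chosen with earlier results known. No gene of these lists was called with age at a fold over 2, and the following counts have no fold limit. By that rule 3.35% of all genes tested fell in mutants and 5.73% in wild type. Of 7 subunits of complex I encoded by mitochondrial DNA, 3 fell in mutants and the same 3 in wild type: mt:ND1, mt:ND4 and mt:ND5. Their median over the 7 was -0.58 in mutants and -0.57 in wild type, and without the libraries with male RNA 0 of the 7 passed in limma in either genotype, with 4 in mutants and 1 in wild type at an unadjusted p under 0.05, and the medians were -0.64 and -0.28. mt:ND1 averaged 5758 ± 407 normalised counts in old mutants and 10255 ± 1462 in young mutants, and 5170 ± 1226 in old wild type and 9548 ± 1780 in young wild type (SD, n = 3 each). These genes were measured after poly(A) selection, as all others were.

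Transcripts of complexes II to V moved in the same direction as those of complex I. In each genotype 4 of 4 complex II genes, 8 of 8 complex III genes, 8 of 9 complex IV genes and 13 of 13 complex V genes fell. Over all genes tested, 3.35% fell in mutants and 5.73% in wild type. Their medians were -0.68 in mutants and -0.63 in wild type for complex II, and -0.55 and -0.50 for complex III. For complex IV they were -0.55 and -0.55, and for complex V -0.49 and -0.43. Without the libraries with male RNA, 4 of 4, 7 of 8, 4 of 9 and 9 of 13 of these genes passed in mutants, against 2.31% of all genes. In wild type, where 1 young library remained, the medians were then smaller in size, at -0.51, -0.37, -0.41 and -0.36 for complexes II to V in turn. With all 12 libraries, 0 of 9 assembly factors of complex I passed in either genotype in limma, edgeR or DESeq2, and 0 had an unadjusted p under 0.05. Their medians were -0.08 in mutants and -0.01 in wild type. Of 7 genes of mitochondrial biogenesis and mitochondrial DNA upkeep, 0 passed by any of these tools with all 12 libraries. Among them 0 had an unadjusted p under 0.05, with medians of -0.07 and 0.00. Without the libraries with male RNA, these medians were -0.11 in mutants and -0.16 in wild type. Those of the assembly factors were then -0.04 and -0.02. No difference between these lists was tested.

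The 6 paralogs were seen almost only in the 3 young libraries with male RNA. They are duplicates of ND-20, ND-24, ND-49, ND-51 (ND-51L1 and ND-51L2) and ND-B14.5A, and none shares exonic bases with another gene. In young mutant replicate 1, young wild type replicate 1 and young wild type replicate 2, ND-49L had 20.5, 29.3 and 86.1 normalised counts, and at most 2.95 in the other 9 libraries. ND-51L1 had 14.66, 32.9 and 82.9 in the same 3 libraries, and at most 5.97 in the other 9. ND-51L2 had 13.7, 10.98 and 53.4, and at most 1.76 in the other 9. The remaining paralogs were lower but split in the same way.

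ND-24L had 18.6, 8.54 and 47.1 in the same 3 libraries, and at most 0.996 in the other 9. ND-B14.5AL had 10.7, 6.10 and 39.1, and was listed at 0 in all of the other 9. ND-20L had 8.79, 3.66 and 27.1, and at most 0.954 in the other 9. Young wild type replicate 2, which had the highest sum of testis markers, was thus also the highest library for all 6 paralogs. Summed over the 6, these libraries had 87.0, 91.5 and 336, and the other 9 had 2.86 to 7.17. That sum was 3.83%, 3.21% and 3.47% of the summed testis and sperm markers in the same libraries. In the other 9 libraries, where both sums were low, it was 3.26% to 10.4%.

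ND-51L1 was the only paralog above 0 in each of the other 9 libraries, with 32 reads in all, whereas ND-B14.5AL had 0. Next to their parent genes the paralogs were minor even where male RNA was present. The highest share was 2.45% of ND-B14.5A, reached by ND-B14.5AL in young wild type replicate 2. Of the 6, ND-49L, ND-51L1 and ND-51L2 passed the filter on low values, which needed the 3 libraries with male RNA. No fold change or test is given for them, since these libraries decide every value.

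**Figure D5:**
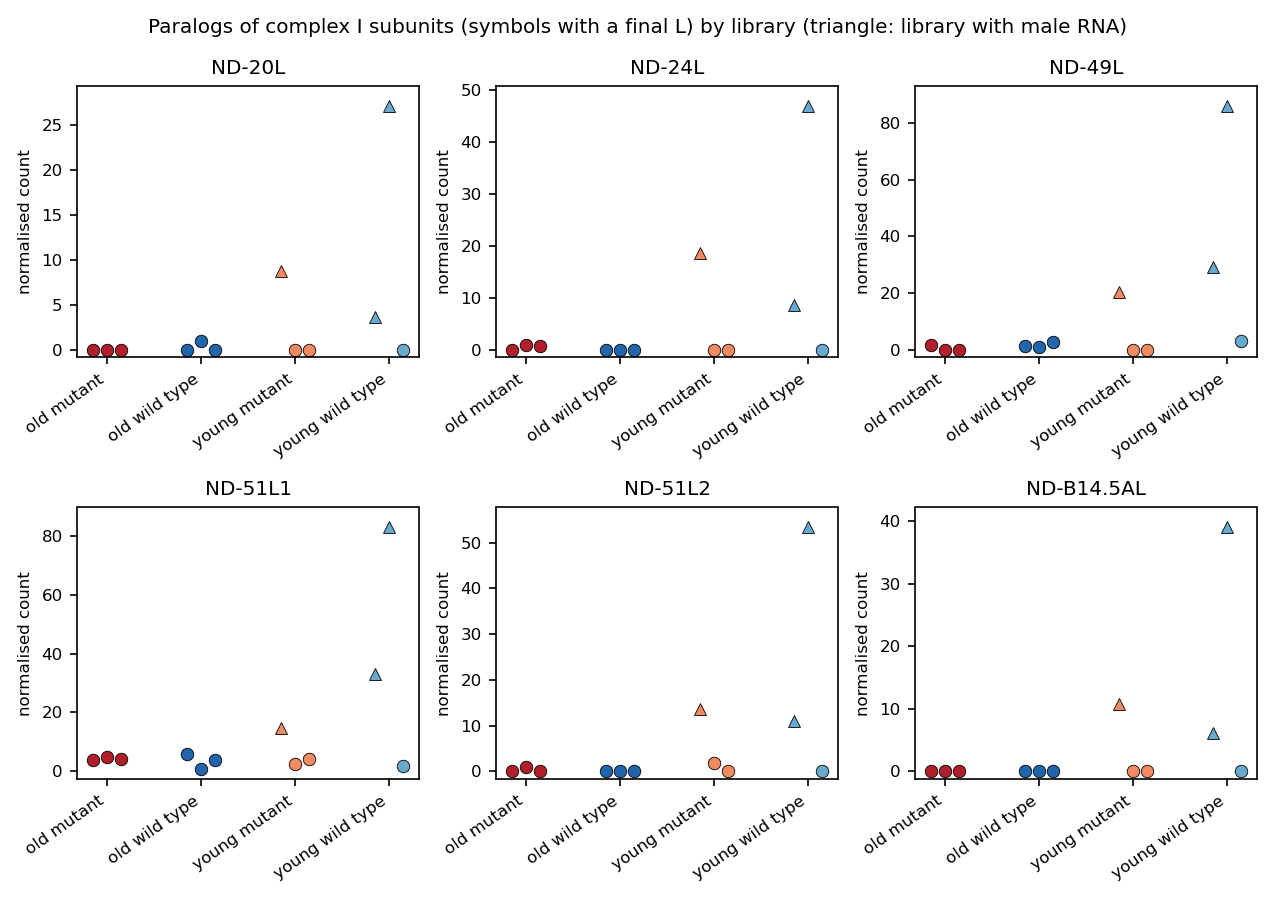
Normalised counts (vertical axis, linear, scaled per gene) of the 6 paralogs of complex I subunits in each of 12 libraries, by group. Each point is a library, and triangles are the 3 young libraries with male RNA. The triangles hold the highest values of every paralog, up to 86.1 for ND-49L, and the circles stay at or below 5.97.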

How the data were processed

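Members and lists were chosen with earlier results of these data known. Per the labels and methods, alignment to BDGP6 was done by the authors with STAR 2.7.3a, gene counting with HTSeq 0.11.2 and scaling by size factors with DESeq2 1.20.0. The deposited values are this normalised signal. Within 0.01, 100% of values were whole multiples of 1 step per library (0.798 to 1.32), which gave back the reads. Strand use in counting, and which of the described library preparations made which library, are not given in the sources used here. The labels and the methods name the alleles and ages differently, and the labels were followed.

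Genes with at least 10 in at least 3 of 12 libraries (11403) entered a 4-group limma 3.58.1 model (R 4.3.3, trend, two-sided) on log2(value + 1), with Benjamini-Hochberg adjustment. Calls needed an adjusted p under 0.05 and a fold over 1.5 (genotype) or 2 (age). The script was tested on simulated data. Text names the core subunits, paralogs, called members and the 3 highest and 3 lowest changes per comparison. Other genes named were chosen after their values were seen. Positions are from Ensembl release 115. Alternatives were other scalings, pseudocounts, filters, edgeR 4.0.16, DESeq2 1.42.0, sample subsets, library weights and a replicate block.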

Additional observations from a re-analysis of the deposited data

How the results depend on the processing

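Of the values recomputed, most kept their direction and side of the threshold. Counts of subunits below an adjusted p of 0.05 at any fold changed most. For young genotype they were 1 with DESeq2, 8 with library weights (where 65.7% of all genes passed) and 0 to 1 over single libraries left out, against 0. For age in mutants they were 6 without the libraries with male RNA and 12 to 31 over single libraries left out, against 27. For age in wild type they were 8 with only the groups compared, 0 without the libraries with male RNA and 13 to 33 over single libraries left out, against 27. Without the libraries with male RNA, 0 subunits were called with age in wild type, the median became -0.28, and ND-B8 changed by -5.64 (limma adjusted p = 0.0652). The lone young wild type library left was the lowest of the 6 young libraries for 29 of 33 subunits. The cause of these shifts was not tested.

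Small genotype differences changed sign. In young flies without the libraries with male RNA, ND-B17.2 became 0.077, ND-49 0.065 and ND-75 0.054. Over single libraries left out, ND-75 in young flies ran from -0.089 to 7.3e-04 (above 0 without wild type replicate 1). In old flies ND-B17.2 ran from -0.11 to 0.013 (above 0 without mutant replicate 3), ND-B12 from -0.14 to 0.049 (without wild type replicate 1 or 3 or mutant replicate 3), ND-30 from -0.11 to 0.048 (without wild type replicate 1 or mutant replicate 3) and ND-B8 from -0.35 to 1.49 (below 0 without mutant replicate 2). In the interaction ND-MWFE became -0.40 under quantile normalisation and ND-49 -0.0042 without the libraries with male RNA. The cause was not tested.

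To look for pairing, the group mean of each gene was subtracted from its log2 levels. Over all genes tested, these deviations correlated between same-numbered libraries of different groups with r between -0.87 and 0.88 (over 0.1 in 4 of 12 pairs). Between the young genotypes r was 0.82, -0.87 and 0.88 for replicates 1, 2 and 3. These hold male RNA in both genotypes, in wild type only and in neither, so this check cannot decide a pairing of young libraries. Between the old genotypes r was 0.10, -0.02 and -0.06. The main model used no pairing. With a replicate block, 23 subunits in mutants and 23 in wild type had an adjusted p under 0.05 with age. Over all genes tested, 334 were lower in mutants and 584 in wild type in that fit. In it 1 subunit was called with age in each genotype, and 0 differed between genotypes. The 8 subunits found in wild type with only the groups compared stood beside 292 genes lower, against 653 in the main model. Over all genes, edgeR on recovered reads called 525 genes between young genotypes, 428 between old genotypes, 173 with age in mutants and 327 in wild type, against 549, 475, 206 and 348 in limma. DESeq2 called 885 with age in wild type, and for the interaction it called 123 and edgeR 6, against 18 in limma. With library weights the young genotype median was 0.0067, with 20 of 33 subunits higher in mutants. Low counts limit ND-B8 in old flies, ND-MWFE and the paralogs.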
